A study of Homo sapiens with 4 samples.

Results

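Hsa-miR-210 is the miRNA best known for its response to low oxygen. Its level was followed here in a pair of human hepatoma lines (HCC cells), Hep3B and Huh7, and in Hep3B-C and Huh7-C, the hepatic cancer stem cells (HCSCs) that were cultured out of them. The guide-strand row named hsa-miR-210 was taken as it stands, 1 of 1733 mature miRNAs listed per library, and no other row carries its name. It was chosen by its counts in these same libraries, lower in both HCSC lines than in their parents, so the comparisons with the parents describe it and were not tested. Each of the 4 cell lines had 1 small RNA library and no replicate. The HCSCs are described as stem-like cells, and the labels name no treatment and no oxygen level, so the oxygen supply of the cultures is not known here.

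When oxygen is scarce, the hypoxia-inducible factors HIF1A and EPAS1 escape degradation and switch on genes of glycolysis, blood vessel growth and pH control, and the miR-210 gene is among the most regular of their targets across cell types. The mature miRNA in turn lowers proteins of mitochondrial respiration, among them the iron-sulfur cluster scaffold ISCU, and the ephrin EFNA3. It is therefore widely read as a mark of HIF activity in tumors, liver tumors included. The messenger RNAs of these genes were not analysed here.

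The mature sequence is shown because its seed, bases 2 to 8, largely decides which messengers it can pair with. RefSeq (GRCh38.p14) names this arm hsa-miR-210-3p. It is 22 bases long and is given 5′ to 3′ with the seed in capitals.
hsa-miR-210-3p: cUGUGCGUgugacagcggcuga
A messenger that pairs with the whole seed carries ACGCACA. No other of the 2370 mature human miRNA names in RefSeq shares bases 2 to 8. Only 1 other, hsa-miR-147b-3p, shares bases 2 to 7, shown in capitals.
hsa-miR-147b-3p: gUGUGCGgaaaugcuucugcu
The seed relative, listed as hsa-miR-147b, had 1 and 2 counts in Hep3B and Hep3B-C and 4 in each Huh7 library. Nearly all counts of miRNAs with this 6-base core were therefore counts of miR-210.

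The precursor is shown to place the mature strand, given in capitals, on the 3′ side of the hairpin. It lies on chromosome 11 of GRCh38, on the minus strand (chr11:568089-568198).
MIR210 hairpin: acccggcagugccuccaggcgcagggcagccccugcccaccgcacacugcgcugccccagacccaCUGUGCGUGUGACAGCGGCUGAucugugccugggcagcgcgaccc
The hairpin is 110 bases long and has a GC content of 72.7%, against 63.6% in the mature strand, which spans positions 66 to 87 of the hairpin. GENCODE release 29 places MIR210 (ENSG00000199038.1) within MIR210HG (ENSG00000247095.2), a long non-coding RNA gene on the same strand, and the hairpin falls in an intron of all 4 annotated MIR210HG transcripts. The RefSeq hairpins within 1 Mb of it are MIR6743 and MIR6744, and neither is among the 1733 miRNAs listed per library.

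All counts of the libraries summed to between 1739278 (Hep3B) and 5741567 (Huh7). The share of the total reads that were miRNA counts was lowest in Hep3B (10.4%) and highest in Huh7 (54.1%), with 35.2% for Hep3B-C and 37.8% for Huh7-C. Levels are given on 2 scales because of this. TPM was computed as the count per 1000000 total reads, and CPM as the count per 1000000 miRNA counts. Whether the total reads were counted before or after filtering is not given in the sources used here, and every TPM rests on them. Of 5 liver miRNAs listed, hsa-miR-192 was the most abundant in every library (179088 counts or more). Hsa-miR-122, the miRNA that defines hepatocytes, was low in Hep3B (397 counts) and at 144814 counts or more in the other 3 libraries. Its passenger strand hsa-miR-122* was at 0 in Hep3B alone, and hsa-miR-194 had 5074 counts or more throughout. Hsa-miR-885-5p was instead short in the Huh7 libraries (2 and 0 counts, parent first), against 186 and 159 for the Hep3B libraries. Thus 4 of the 5 reached 10 counts in Hep3B and in each Huh7 library, and all 5 did in Hep3B-C. Of 17 marker miRNAs of blood, endothelial, muscle, neural and stromal cells, 10 stayed under 10 counts in all libraries.

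MiR-210 was a moderately abundant miRNA of the parent lines, and each HCSC line held 22.2% or less of its parent's TPM. Hep3B had 1120 counts and Hep3B-C 229. Huh7 had 1992 counts and Huh7-C 417. Both HCSC libraries were lower than both parent libraries, although Hep3B had the smallest miRNA total of all.

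The level was 66.7 TPM in Hep3B (95% Poisson interval 62.9 to 70.8) and 14.8 TPM in Hep3B-C (13.0 to 16.9). It was 187.5 TPM in Huh7 (179.4 to 196.0) and 38.9 TPM in Huh7-C (35.3 to 42.8). On this scale the order from high to low was Huh7, Hep3B, Huh7-C and Hep3B-C, and no interval touched that of its neighbour. These intervals cover counting error only, and the spread between cultures of one line is not known.

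The level was 643.9 CPM in Hep3B (606.8 to 682.8) and 42.2 CPM in Hep3B-C (36.9 to 48.0). It was 346.9 CPM in Huh7 (331.9 to 362.5) and 103.1 CPM in Huh7-C (93.4 to 113.5). The parents changed places, with Hep3B now highest, and the HCSC lines kept theirs. By rank, miR-210 was the 68th most abundant of 674 miRNAs detected in Hep3B, 187th of 773 in Hep3B-C, 77th of 712 in Huh7 and 111th of 664 in Huh7-C. The drop in rank was thus larger in the Hep3B pair than in the Huh7 pair. In a bulk library, fewer cells that make the miRNA and less of it per cell cannot be told apart.

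**Figure D1:**
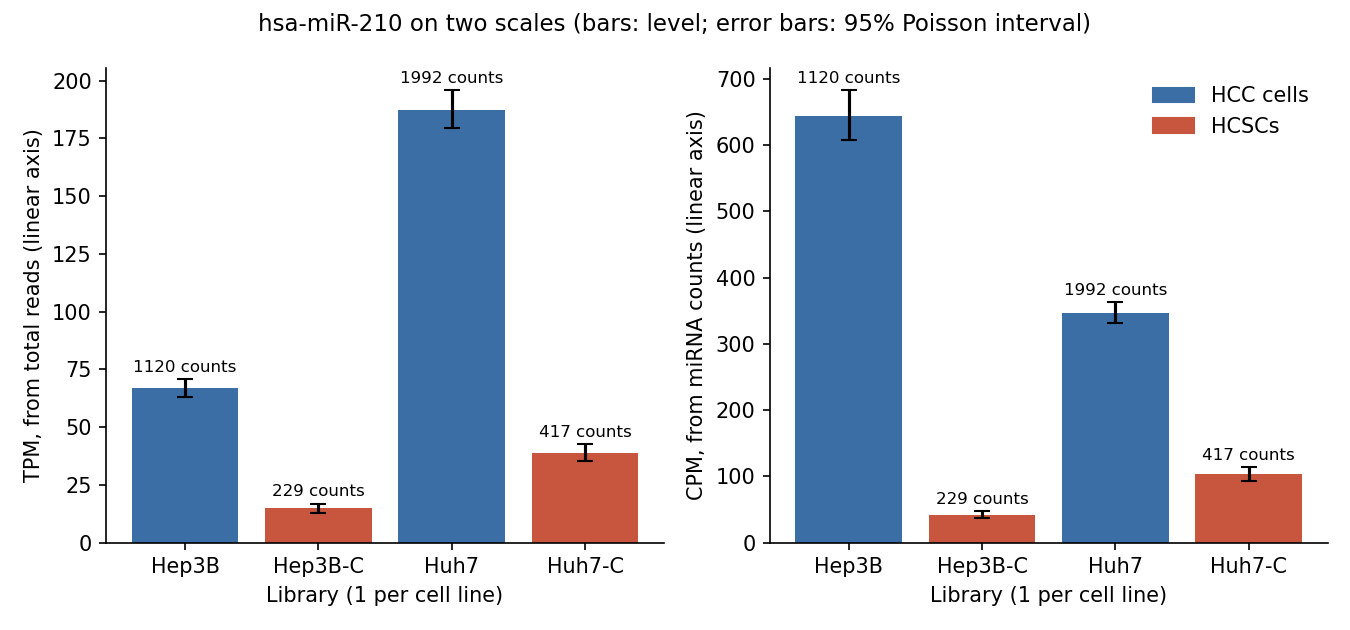
Level of hsa-miR-210 in each of the 4 libraries, as bars on linear axes from 0, as TPM (left) and as CPM (right), with 95% Poisson intervals of the count as error bars. Both HCSC bars (229 and 417 counts) are below both parent bars (1120 and 1992 counts) on either scale, while the order of Hep3B and Huh7 changes between the scales.

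Between Hep3B and Hep3B-C the log2 fold-change of TPM was -2.17 (95% interval of the counts -2.38 to -1.96), which left 22.2% of the parent level. Between Huh7 and Huh7-C it was -2.27 (interval -2.42 to -2.12), which left 20.8%. The fold-changes differed by -0.10 on the log2 scale (Huh7 pair minus Hep3B pair, interval -0.35 to 0.16). Of the 6 library sizes tried, this was the 1 whose interval included 0. In CPM the log2 fold-change was -3.93 from Hep3B to Hep3B-C (6.55% of the parent level left) and -1.75 from Huh7 to Huh7-C (29.7% left), and the difference was 2.18 (interval 1.93 to 2.44). With the other 4 library sizes tried, the difference lay between 1.63 and 1.93. MiR-210 was lower in both HCSC lines under all 6 library sizes, but whether both lines lost it to a like extent depended on the library size.

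**Figure D2:**
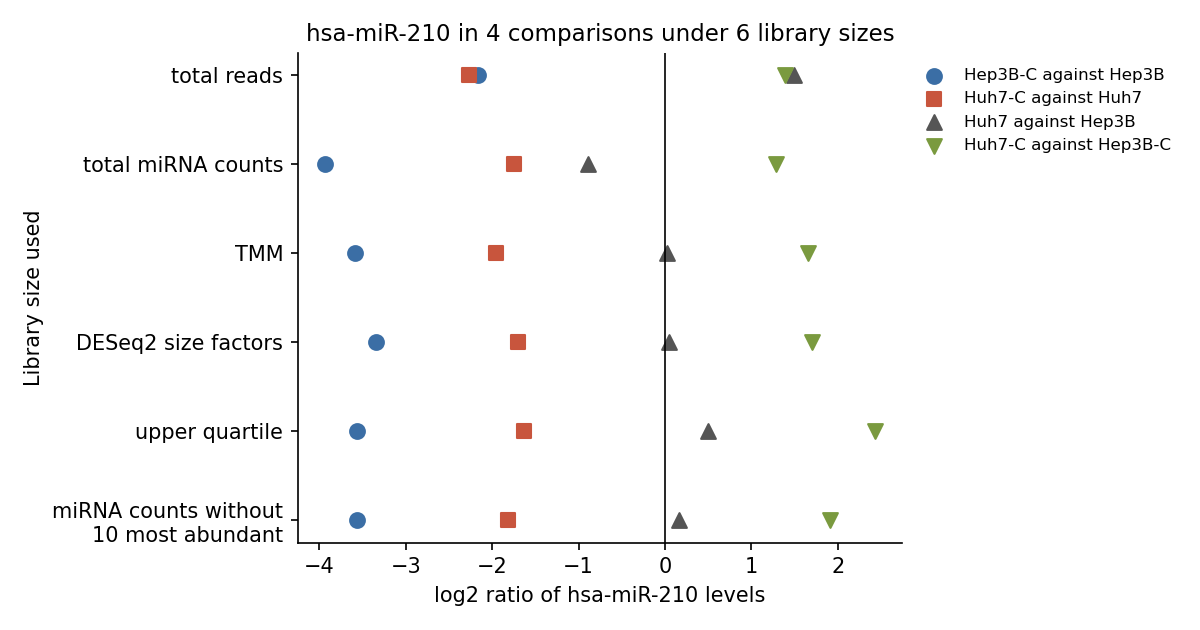
Log2 ratio of the hsa-miR-210 level (horizontal axis) in 4 comparisons under 6 library sizes (vertical axis), 1 point per comparison and library size. Both HCSC-to-parent comparisons are below 0 throughout, at -1.63 or lower, whereas Huh7 against Hep3B runs from -0.89 to 1.49.

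The levels of all miRNAs shifted between the libraries, and the fold-change of miR-210 was read against that shift. A miRNA was included where 1 library of a pair had 10 counts or more. The 475 miRNAs of the Hep3B pair had a median log2 fold-change of TPM of 1.42, and 24 of them (5.05%) were lower by 2-fold or more in Hep3B-C. In TPM, miR-210 went against the shift there. Of the other miRNAs, 4 were at or below its fold-change, and it stood 3.59 below the median on the log2 scale. In the Huh7 pair the median over 431 miRNAs was -0.66, and 161 (37.4%) were lower by 2-fold or more in Huh7-C. There miR-210 moved with the shift, with 58 other miRNAs at or below its fold-change, and stood 1.60 below the median. A 2-fold decrease was common in Huh7-C and rare in Hep3B-C on this scale. In CPM, the share lower by 2-fold or more was 25.1% in Hep3B-C and 24.4% in Huh7-C. The medians in CPM were -0.34 and -0.15, so that miR-210 moved with the shift in both pairs on that scale. The rank of miR-210 and its distance from the median were as before, since a library size shifts all miRNAs alike.

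**Figure D3:**
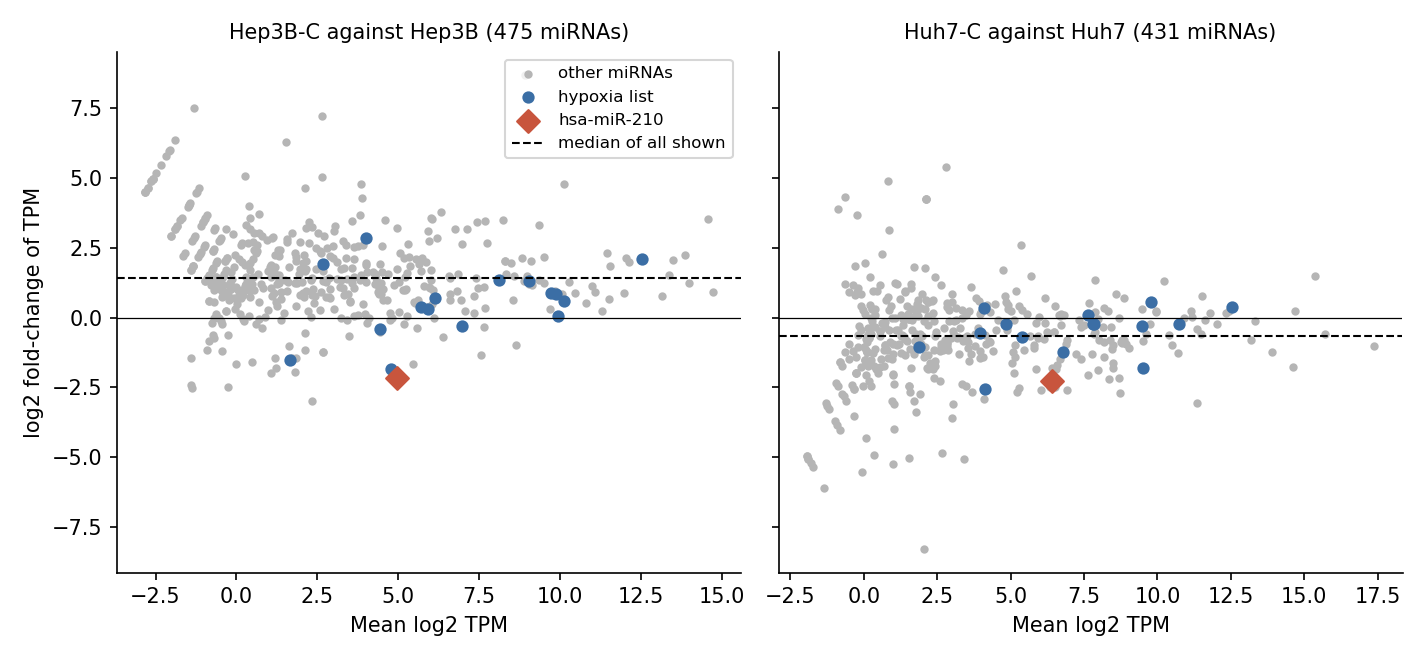
Log2 fold-change of HCSCs against parent cells (vertical axis) by mean log2 TPM (horizontal axis), for the 475 miRNAs of the Hep3B pair (left) and the 431 of the Huh7 pair (right), 1 point per miRNA. Hsa-miR-210 (diamond) is near the lower edge on the left, 3.59 below the dashed median, and 1.60 below it on the right, where many points of low counts are lower still.

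Few miRNAs had a fold-change as low as that of miR-210 in Hep3B-C, and most of those had few counts. There were 4, the lowest being hsa-miR-483-3p, which is made from an intron of the growth factor gene IGF2 (236 to 27 counts). The rest were hsa-miR-4788 (15 to 2 counts), hsa-miR-3200-3p (33 to 5) and hsa-miR-26a-2* (14 to 2). In Huh7-C there were 58 such miRNAs. The lowest was hsa-miR-451, a miRNA of red blood cell precursors, from 773 to 2 counts, followed by hsa-miR-2276 (34 to 0), hsa-miR-874 (69 to 1), hsa-miR-137 (20 to 0) and hsa-miR-767-3p (130 to 3). Hsa-miR-4788 was the 1 other miRNA with a fold-change at least as low as that of miR-210 in both pairs, from 15 to 2 and from 15 to 0 counts. Of the 359 miRNAs that reached 10 counts in both pairs, 15 (4.18%), miR-210 included, were lower by 2-fold or more in both.

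MiR-210 was also set against miRNAs of like or higher abundance. Among the 68 miRNAs with at least its count in Hep3B, it had the lowest log2 fold-change in Hep3B-C. The next was hsa-miR-100, from 1307 to 378 counts (log2 fold-change -1.67). Among the 77 with at least its count in Huh7 it was sixth from the lowest, and hsa-miR-30a was the lowest (79756 to 9728 counts, -3.05). The 20 miRNAs nearest to it by count in Hep3B (869 to 1729 counts) had a median log2 fold-change of 0.78, from -1.83 (hsa-miR-181d) to 3.50 (hsa-miR-215), and none was as low as miR-210. The 20 nearest in Huh7 (1687 to 2710 counts) had a median of -0.88, from -2.58 (hsa-miR-29b) to 0.51 (hsa-miR-378c), and 3 were at or below miR-210.

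A ratio of counts within a library needs no library size, so miR-210 was also set against 8 abundant miRNAs often used as references. The references moved themselves. In TPM, 6 of 8 were higher by 2-fold or more in Hep3B-C (median log2 fold-change 1.74), against 66.5% of all miRNAs compared. In Huh7-C 0 were (median -0.02), against 7.42%. In CPM the medians were -0.02 and 0.50. Hsa-miR-24 and hsa-miR-103a are also among the miRNAs reported to rise under low oxygen, listed below. For every 1000 counts of hsa-miR-24, Hep3B had 68.6 counts of miR-210 and Hep3B-C 14.8, while Huh7 had 101.9 and Huh7-C 24.6. For every 1000 counts of hsa-miR-16, the values were 787.6, 27.7, 580.8 and 153.4 in the same order. The ratio was lower in the HCSCs for 8 of 8 references in the Hep3B pair, by a median log2 change of -3.91 (from -4.83 against hsa-miR-16 to -2.22 against hsa-miR-24). It was lower for 8 of 8 in the Huh7 pair as well, by a median of -2.25 (from -3.09 against hsa-miR-25 to -1.75 against hsa-miR-423-5p). The 8 ratios share the miR-210 counts and are not independent of each other. A ratio is lower against any miRNA with a fold-change above that of miR-210. That held for 470 of 475 miRNAs in the Hep3B pair and 372 of 431 in the Huh7 pair. With miR-210 chosen for its lower counts, 8 of 8 was thus close to fixed beforehand and is no separate support.

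**Figure D4:**
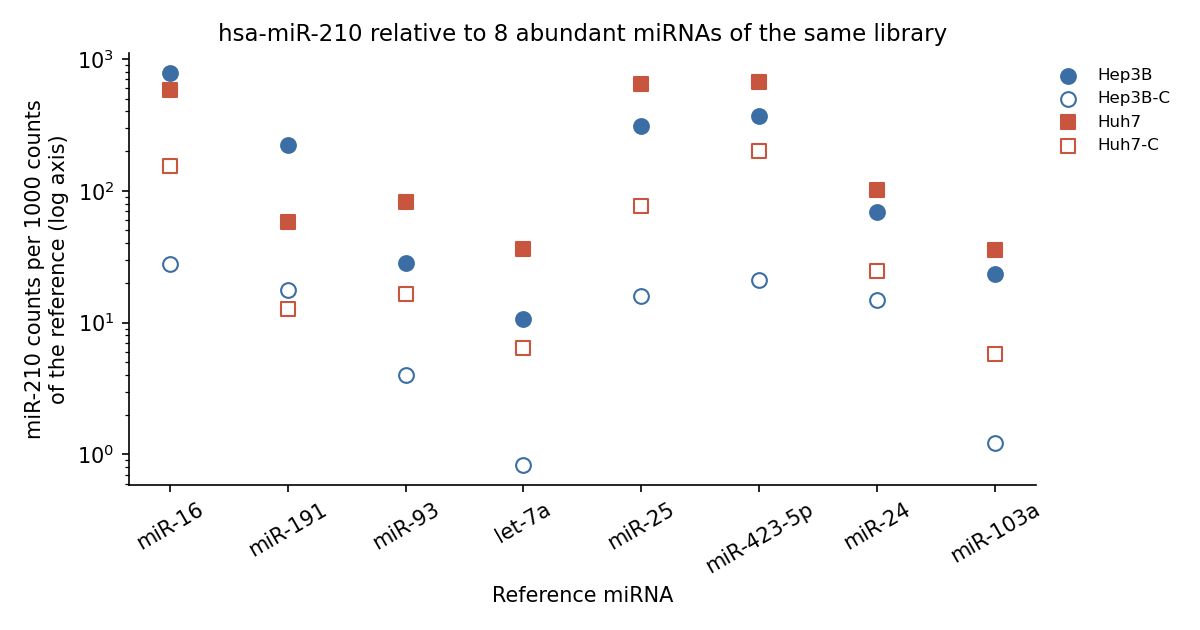
Counts of hsa-miR-210 per 1000 counts of each of 8 reference miRNAs (horizontal axis) in the same library, on a log axis, 1 point per library. For each reference the open symbol (HCSCs) is below the filled symbol (parent) of the same line, and the filled symbols of Hep3B and Huh7 change order between references.

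Between the lines themselves, the order of miR-210 was less settled in the parents than in the HCSCs. Huh7 had 2.81 times the TPM of Hep3B, a log2 ratio of 1.49 (interval 1.38 to 1.60). In CPM it had 53.9% of the Hep3B level, a log2 ratio of -0.89 (interval -0.999 to -0.79). The median log2 ratio of all 476 miRNAs compared between the parents was 1.59 in TPM, and miR-210 was close to it, 0.10 below. Against the reference miRNAs, the ratio was higher in Huh7 for 6 of 8 and lower for hsa-miR-16 and hsa-miR-191. Between the HCSC lines, Huh7-C had 2.62 times the TPM of Hep3B-C (log2 ratio 1.39, interval 1.16 to 1.63) and 2.44 times its CPM (1.29, interval 1.05 to 1.53). Huh7-C was the higher of the HCSC lines under all 6 library sizes and for 7 of 8 references, the exception being hsa-miR-191 (17.6 counts of miR-210 per 1000 in Hep3B-C and 12.6 in Huh7-C). MiR-210 stood 2.21 above the median log2 ratio of the 502 miRNAs of that comparison, with 93 of them higher.

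Among other miRNAs reported to rise under low oxygen, hsa-miR-23b in the Huh7 pair was the 1 with a fold-change as low as that of miR-210. Such fold-changes were uncommon over all miRNAs too, with 4 others of 475 in the Hep3B pair and 58 others of 431 in the Huh7 pair. The list held 17 miRNAs, of the miR-23, miR-24, miR-26, miR-27, miR-103, miR-107 and miR-181 families with miR-424, miR-373 and miR-429. In the Hep3B pair, 16 reached 10 counts, of which 5 were higher by 2-fold or more in TPM, 2 were lower and 9 were between. Of all miRNAs compared there, 66.5% were higher and 5.05% lower by that much. The list's median log2 fold-change was 0.66, against 1.42 over all, and its extremes were hsa-miR-107 (99 to 666 counts, 2.86) and hsa-miR-181d (869 to 224 counts, -1.83). In CPM the direction of most members turned, with 1 higher, 9 lower and a median of -1.11, against 19.4% higher, 25.1% lower and a median of -0.34 over all. On neither scale was a member of the list as low as miR-210 in this pair, where 4 others of all 475 miRNAs compared were.

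In the Huh7 pair, 15 of the 17 reached 10 counts. In TPM, 0 were higher by 2-fold or more, 4 were lower and 11 were between, against 7.42% higher and 37.4% lower of all miRNAs compared. The median was -0.24, against -0.66 over all. Hsa-miR-27a had the largest increase (7662 to 11356 counts, 0.56) and hsa-miR-23b the largest decrease (445 to 76 counts, -2.55). The latter was the 1 fold-change of the list below that of miR-210, against 58 others of all 431 miRNAs compared. In CPM, 1 member was higher, 2 were lower and the median was 0.28, against 15.3%, 24.4% and -0.15 over all. Chosen after the values were seen, hsa-miR-181c was the 1 of these 15 members lower by 2-fold or more in both pairs in TPM. Of all miRNAs that reached 10 counts in both pairs, 15 of 359 (4.18%) were. Hsa-miR-181c had 88 counts against 28 for the Hep3B libraries and 56 against 27 for the Huh7 libraries, parent first. From Huh7 to Huh7-C its log2 fold-change of CPM was -0.53.

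HIF1A is the oxygen-regulated subunit of the factor that drives miR-210. The miRNAs reported to act on its messenger had fold-changes above that of miR-210 in both pairs, wherever they reached 10 counts. So did most miRNAs compared, 470 of 475 in the Hep3B pair and 372 of 431 in the Huh7 pair, so this does not set the list apart. Of 7 listed, 3 reached 10 counts in the Hep3B pair, where hsa-miR-20a went from 22741 to 46172 counts (log2 fold-change 1.14 in TPM and -0.62 in CPM) and hsa-miR-18a from 2074 to 3251 (0.77 and -0.99). In the Huh7 pair 5 reached 10 counts, of which 2 were lower by 2-fold or more in TPM, against 37.4% of all miRNAs compared. Hsa-miR-18a went from 1687 to 482 counts (-1.82 in TPM and -1.30 in CPM), and the fold-changes in TPM ran from hsa-miR-199a-5p (17 to 4 counts, -1.97) to hsa-miR-17 (3155 to 3726 counts, 0.23). The medians, 0.89 and -0.86 in TPM, were both below those of all miRNAs compared. Hsa-miR-155 had at most 4 counts in a library and hsa-miR-519c-3p had 0 in all.

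By pattern over the 4 libraries, 442 other miRNAs that reached 10 counts in 2 or more libraries were compared with miR-210. The measure was the Euclidean distance between log2 levels centred on the mean of each miRNA, which no library size can change. The nearest was hsa-miR-26a-2*, the passenger strand of a miR-26a hairpin (14 and 2 counts in the Hep3B libraries and 19 and 6 in the Huh7 libraries, parent first, distance 0.51), followed by hsa-miR-589* (29, 8, 58 and 7 counts, 0.75). Next were hsa-miR-7-1* (12, 7, 49 and 9 counts, 1.14), hsa-miR-29c (100, 33, 96 and 42 counts, 1.15) and hsa-miR-1285 (662, 518, 1877 and 530 counts, 1.40). The median distance over all was 3.60. The 3 nearest had 58 counts or fewer in every library, so that their places carry much counting error, and hsa-miR-29c, which acts on collagens and other matrix genes, and hsa-miR-1285 were the nearest of those with more. With 4 libraries, such a likeness is a description only.

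**Figure D5:**
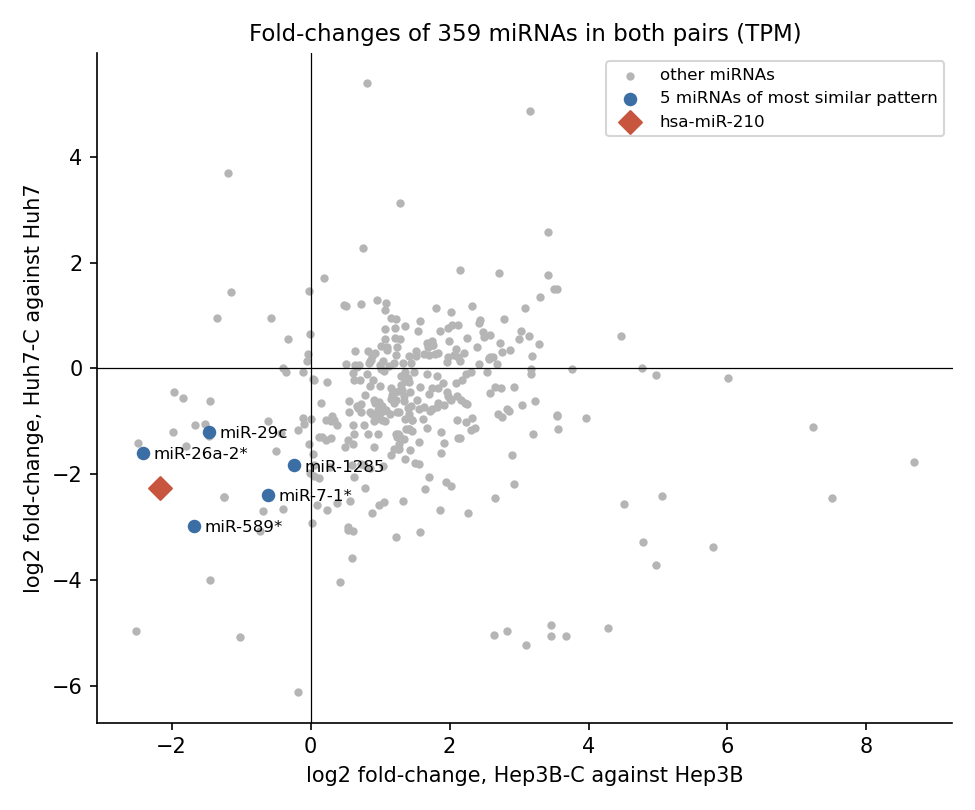
Log2 fold-change of TPM in the Hep3B pair (horizontal axis) and the Huh7 pair (vertical axis) of the 359 miRNAs with at least 10 counts in both pairs, 1 point per miRNA. Hsa-miR-210 (diamond, -2.17 and -2.27) is in the lower left corner, where few other miRNAs are found, near hsa-miR-26a-2* and hsa-miR-589*.

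The levels of 17 markers of other cell types were summed for comparison. The sum was 84.1 TPM in Hep3B and 264.2 TPM in Hep3B-C, and 1195.1 TPM in Huh7 and 1225.6 TPM in Huh7-C. In CPM it was 811.8 and 751.2 in the Hep3B pair, parent first, and 2211.1 and 3246.3 in the Huh7 pair. Most of the Huh7 sum was hsa-miR-9, a miRNA of neural cells (9765 and 11349 counts). Without it, the other 16 markers were higher in Hep3B-C than in Hep3B in TPM (209.5 against 75.0) and lower in CPM (595.7 against 723.3). They were lower in Huh7-C than in Huh7 on both scales (166.4 against 275.8 TPM, and 440.8 against 510.3 CPM). Those 16 held 1258 and 3235 counts in the Hep3B pair, parent first, of which hsa-miR-126 made up 807 and 1487. In the Huh7 pair they held 2930 and 1783, with 2031 and 1618 from hsa-miR-126 and 773 and 2 from hsa-miR-451. The lower sums in CPM rested on hsa-miR-126 in the Hep3B pair and on hsa-miR-451 in the Huh7 pair. Between 6 and 10 of the 17 were at 0 in a library, and hsa-miR-144, hsa-miR-150 and hsa-miR-124 were at 0 in all. In the Huh7 pair, 3 of the 7 markers that reached 10 counts were lower by 2-fold or more in TPM, against 37.4% of all miRNAs compared, and 2 of 7 in CPM, against 24.4%. The 3 were hsa-miR-451 (773 to 2 counts), hsa-miR-142-3p of blood cells (20 to 3) and hsa-miR-143 of stromal cells (33 to 13). Of the same 7, 1 was higher by 2-fold or more in TPM, against 7.42%, and 2 in CPM, against 15.3%. These were hsa-miR-206 of muscle (34 to 95 counts) on both scales and hsa-miR-1 (31 to 44) in CPM. In the Hep3B pair 0 of 5 were lower by 2-fold or more in TPM, against 5.05%, and 1 of 5 in CPM, against 25.1%. That 1 was hsa-miR-206, with 10 counts in Hep3B and 9 in Hep3B-C. In TPM, 4 of the 5 were higher by 2-fold or more in Hep3B-C, against 66.5% of all miRNAs compared. Hsa-miR-143 (427 to 1706 counts) and hsa-miR-1 (4 to 27) were among them. In CPM 0 of the 5 were, against 19.4%. Hsa-miR-451 had 1 count in each Hep3B library. The part of these markers in the difference of miR-210 was not tested.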

How the data were processed

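Small RNA of 4 cell lines was measured with 1 library per line (Illumina Genome Analyzer II). The authors dropped reads under 18 nt and those they held to be contaminant or redundant, mapped the rest to NCBI Build 36.1 with SOAP (version not given in the sources used here), set aside other small RNA classes and assigned the remainder to miRBase release 17. The authors deposited raw counts per mature miRNA, without normalization. Counts were divided here by the total reads that the study gives per library (TPM), or by the sum of the miRNA counts (CPM). Total reads include reads that are not miRNA, so a library with few miRNA reads has low levels on that scale.

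Fold-changes across miRNAs had 0.5 counts added and were computed where either library had at least 10 counts. Those of miR-210 had none added. Its levels have exact Poisson intervals, its ratios exact binomial intervals given the sum of both counts, and the difference between the pairs a normal interval, all at 95%. With 1 library per condition, and a miRNA chosen for its change, no test was run. The code of the binomial intervals was tested on simulated counts with Poisson error only, and that of the other intervals was not. The miRNA, lists and rules were chosen with earlier results of these data known. The text names the extremes of each list, the 5 nearest patterns, up to 5 miRNAs per pair as low as miR-210, seed relatives and miRNAs near the gene. The comparison with miRNAs at least as abundant in the parent was added after the values were seen. In the lists, miR-103 was read from the row hsa-miR-103a. Other library sizes were edgeR TMM, DESeq2 size factors, the upper quartile and miRNA counts without the 10 most abundant miRNAs. Sequences come from RefSeq (GRCh38.p14) and gene models from GENCODE release 29 (GRCh38). The arm hsa-miR-210-3p was matched to hsa-miR-210 as the known guide strand. The files hold no positions. Python 3.11.15, numpy 2.4.6, scipy 1.17.1, pandas 2.3.3, R 4.3.3, edgeR 4.0.16 and DESeq2 1.42.0 were used.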

Additional observations from a re-analysis of the deposited data

How the results depend on the processing

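In the Hep3B pair, the log2 fold-change of miR-210 was -3.93 with total miRNA counts as library size, -3.58 with TMM, -3.35 with DESeq2 size factors, -3.56 with the upper quartile, -3.57 without the 10 most abundant miRNAs and -3.59 with the median of all miRNAs set to 0, an alternative chosen after seeing the data. In the Huh7 pair the values were -1.75, -1.95, -1.70, -1.63, -1.81 and -1.60 in the same order. The difference between the pairs became 2.18, 1.63, 1.65, 1.93 and 1.75 with the first 5 of these. Huh7 against Hep3B reversed to -0.89 with total miRNA counts and was 0.029 with TMM, 0.044 with DESeq2 size factors, 0.50 with the upper quartile and 0.16 without the 10 most abundant. Huh7-C against Hep3B-C was 1.66, 1.70, 2.43 and 1.92 with these last 4, and stayed within its interval with total miRNA counts. The number of miRNAs lower by 2-fold or more in Hep3B-C was 119 with total miRNA counts, 84 with TMM and 69 with DESeq2 size factors. It was 84 with the upper quartile and 84 without the 10 most abundant. In Huh7-C it was 105, 122, 99, 93 and 111 in the same order. A minimum of 1 count gave 96 in Hep3B-C and 299 in Huh7-C, and 10 counts in both libraries gave 17 and 93. These minimums also change how many miRNAs are compared, so these counts are not out of the 475 and 431 above. All these counts follow from the library sizes and minimums themselves. With identical rows counted once, the number was 23 in Hep3B-C and 160 in Huh7-C. Adding 1 count to miR-210 moved none of its 4 ratios beyond their intervals.

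The fold-changes were taken within each pair of an HCSC line and its parent. No paired test was run, with 1 library per condition and miR-210 chosen for this contrast. The labels give no replicate numbers. Each pair is 1 parent and 1 HCSC library, and none was left out. A floor of 3 counts equalled 0.179 to 0.282 TPM, far below the 14.8 TPM of miR-210 in Hep3B-C, its lowest level. The spread between cultures remained unmeasured.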
